A study of Mus musculus with 3 samples.

Results

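The genes described here are 6 members of the plasminogen activation system and of the serpin family, picked by name: Plau, Plat, Plaur, Serpine2, Serpinf1 and Serping1. They are 6 of the 22706 genes to which the deposited transcripts could be assigned, and 6 of the 11463 genes that passed the filter on low values (at least 1 FPKM in at least 1 library and a RefSeq transcript of at least 300 nt). FPKM is a fragment count scaled by transcript length and by the number of mapped fragments in the library. Each member is a single RefSeq transcript at a locus of its own, and the level of a gene is the sum of that transcript and of the transcripts that Cufflinks assembled at the same locus from the reads of that library.

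Plasminogen is a circulating zymogen that becomes plasmin, a protease that dissolves fibrin and degrades matrix, when urokinase or tissue plasminogen activator cuts it. Urokinase acts at the cell surface on a lipid-anchored receptor, and serpins stop the activators by forming a covalent complex with them, after which the complex is taken up by receptors of the LDL family. In skeletal muscle the system is known for its part in regeneration and in the movement and fusion of myoblasts. Not every serpin inhibits a protease, and some members of the family control complement or act as secreted signals.

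The study used C2C12, a mouse myoblast line that can be turned towards muscle or bone, as 3 libraries of polyadenylated RNA with 1 library in each group. The library labelled shKSRP came from cells carrying a short hairpin RNA against KSRP (gene Khsrp), a protein that binds AU-rich elements and promotes mRNA decay, in growth medium with 20% serum. The BMP2 library came from mock-transfected cells whose title names differentiation medium and BMP2, a bone morphogenetic protein. Per the protocol, that medium holds 2% horse serum and BMP2 was used at 100 to 300 ng/ml. The mock library came from mock-transfected cells in the growth medium with 20% serum. The BMP2 comparison therefore changes medium and BMP2 together, and their parts cannot be told apart. The labels do not say whether the transfected cells were a clone or a pool. In bulk RNA, fewer cells that express a gene and less of its RNA per cell cannot be told apart.

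As no group holds a second library, the differences could not be set against a spread between replicates, and p-values were not computed. The ± after a level is the half-width of the deposited 95% interval, combined over the transcripts of a gene, so it reflects errors of counting and of dividing fragments between transcripts. The range after a log2 ratio is the one these half-widths allow. A ratio is taken after 1 FPKM was added to each level, so that low genes show less change than they had, and a gene is called higher or lower at a 2-fold difference on that scale. The intervals correspond to between 60400000 and 68500000 fragments per library. Khsrp, the targeted gene, was at 28.4 ± 0.64 FPKM in the library labelled shKSRP, against 27.1 ± 0.67 FPKM in the BMP2 library and 31.4 ± 0.85 FPKM in mock, so its level lay between those of both libraries without the hairpin, and a doubt about that label applies to each direction given for it. All 6 myoblast markers passed the filter and were above 0 in each library, but they did not hold steady. Their sum was 498 FPKM in the library labelled shKSRP, 341 FPKM with BMP2 and 541 FPKM in mock, carried mostly by Des and Chrna1. Myf5 was at 48.4 FPKM in the library labelled shKSRP, against 9.09 FPKM with BMP2 and 7.75 FPKM in mock. Cdh15 was at 31.1 FPKM in the library labelled shKSRP, against 5.02 FPKM with BMP2 and 38.3 FPKM in mock, and Itga7 was also called lower with BMP2. Of 6 monocyte and macrophage markers 3 passed the filter, Cd14 at 4.61 FPKM in the library labelled shKSRP, 10.5 FPKM with BMP2 and 11.9 FPKM in mock, Lyz2 at 3.98, 1.83 and 0.60 FPKM, and Csf1r at 0.21, 2.13 and 0.55 FPKM in the same order of libraries, while Adgre1 and Itgam were listed at 0 in each. The 6 endothelial markers, none of which passed the filter, summed to 0.36, 0.16 and 0.10 FPKM, and the epithelial markers are given with Serping1. The part of these shifts in the members' differences was not tested. Log2 ratios also ran with transcript length over all genes. For the library labelled shKSRP against mock, their median was −0.55 for transcripts under 1000 nt and 0.46 for those of 6000 nt or more, and for BMP2 against mock it was −0.43 and 0.27.

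All 6 members differed by at least 2-fold between the library labelled shKSRP and mock, where 24.0% of all genes compared did so. The range of Serpinf1 left its direction unsettled, and with RefSeq transcripts alone 3 of the 6 were called and the direction of Serping1 turned. Plat, Serpine2 and Serpinf1 were higher (3 of 6, beside 11.0% of all genes), and Plau, Plaur and Serping1 were lower (3 of 6, beside 12.9%). With BMP2 against mock, Serpine2, Serpinf1 and Serping1 were higher (3 of 6, beside 9.21% of all genes), no member was lower (8.95% of all genes were), and either direction held for 18.2% of all genes. With RefSeq transcripts alone Serpinf1 was not called there. Both comparisons share the mock library, so their directions are not independent of each other, and the members were chosen with earlier results known.

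**Figure D1:**
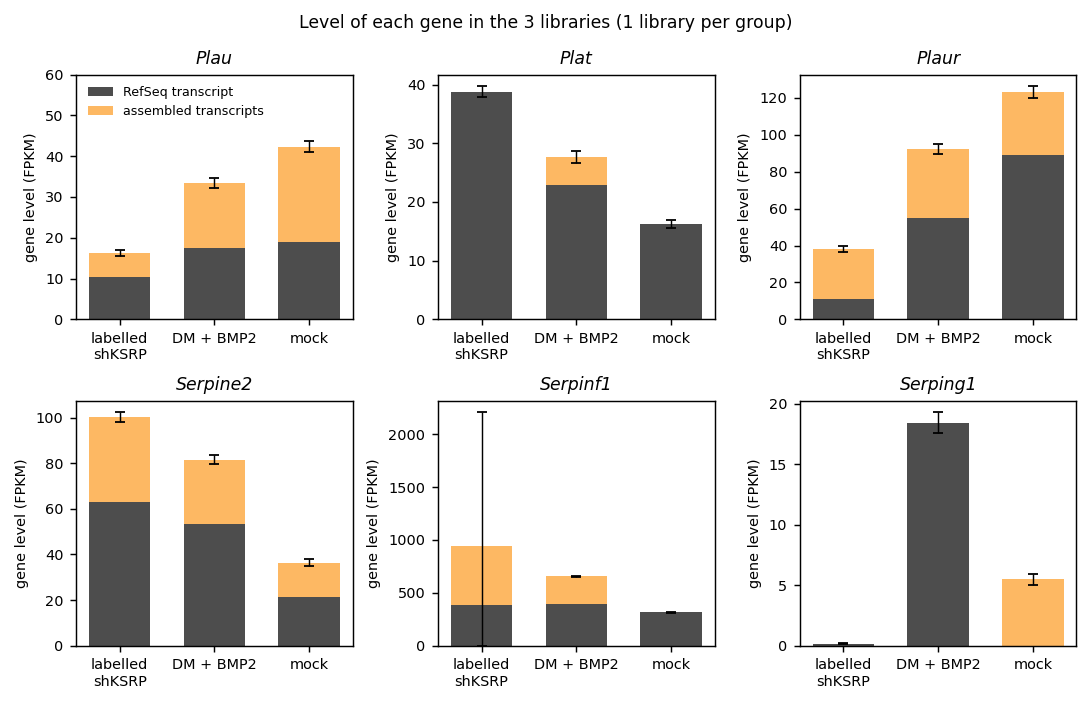
Gene level in FPKM on the vertical axis for the library labelled shKSRP, the BMP2 library (DM + BMP2) and mock, split into the RefSeq transcript (dark) and the assembled transcripts (light); error bars are the combined 95% half-widths, cut at 0, and the axes differ between panels. Plau and Plaur were lowest in the library labelled shKSRP (16.2 and 38.1 FPKM), Plat and Serpine2 were highest there (38.8 and 100.1 FPKM), and Serping1 was nearly absent there (0.18 FPKM); the error bar of Serpinf1 in that library starts at 0 and is longer than its level.

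KSRP is known to bind AU-rich elements in the 3′ untranslated region (3′ UTR) of mRNAs, so the members' 3′ UTRs were searched for such letters as a description. Whether they have a part in the differences was not tested. In the GENCODE M21 transcripts (build GRCm38) matched to the members' RefSeq accessions, the heptamer TATTTAT was searched on the sense strand as a common core of such elements. It overlaps the pentamer ATTTA, which it contains. It occurred once in the 3′ UTR of Plau, starting 878 bases after the stop codon and ending 51 bases before the end of the 935 nt UTR. It also occurred once in that of Plat, starting 642 bases after the stop codon in a UTR of 738 nt. The capitals mark the heptamer in the 30 bases around it.
Plau: tctgctattttTATTTATatctatttttat
Plat: taacactagtaTATTTATattttaatctat
Among UTRs at least as long and trimmed to the same length, 20.3% of 9136 held the heptamer for the length of Plau and 16.3% of 10470 for that of Plat. The 3′ UTRs of Plaur (496 nt), Serpine2 (808 nt), Serpinf1 (365 nt) and Serping1 (187 nt) did not hold these letters. The pentamer ATTTA occurred 2 times each in Plau, Plat and Plaur, once in Serpinf1 and not in Serpine2 or Serping1. Of all 19266 3′ UTRs, whatever their length, 62.5% hold it. Among UTRs at least as long and trimmed to the same length, the share was 68.8% for Plau, 60.8% for Plat and 47.2% for Plaur. It was 63.7% for Serpine2, 37.5% for Serpinf1 and 19.9% for Serping1. Of the 2 members with the heptamer, Plau was called lower and Plat higher in the library labelled shKSRP against mock. The assembled Plau transcripts, described below, stopped 198 bp before the RefSeq 3′ end. If both annotations share that end, the heptamer lies beyond these transcripts as modelled. They held 35.3% of Plau in the library labelled shKSRP, 47.5% with BMP2 and 55.2% in mock.

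Promoter windows (250 bases before to 50 after the annotated start, RefSeq, GRCm38.p6) were at hand for 3 members, of which Plaur was lower and Serpine2 and Serpinf1 were higher in the library labelled shKSRP. They are shown because their base composition differs. Capitals mark the AP-1 heptamer TGACTCA, the GC box GGGCGG or TATAAA, searched on both strands. Neighbouring GC boxes can overlap.
Plaur (chr7:24462233-24462532, plus strand): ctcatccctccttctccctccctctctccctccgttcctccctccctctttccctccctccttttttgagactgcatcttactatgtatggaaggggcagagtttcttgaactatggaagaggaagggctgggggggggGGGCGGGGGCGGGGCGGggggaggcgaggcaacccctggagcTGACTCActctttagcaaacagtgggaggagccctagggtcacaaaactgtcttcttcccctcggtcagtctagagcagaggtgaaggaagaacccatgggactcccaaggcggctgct
Serpine2 (chr1:79858616-79858915, minus strand): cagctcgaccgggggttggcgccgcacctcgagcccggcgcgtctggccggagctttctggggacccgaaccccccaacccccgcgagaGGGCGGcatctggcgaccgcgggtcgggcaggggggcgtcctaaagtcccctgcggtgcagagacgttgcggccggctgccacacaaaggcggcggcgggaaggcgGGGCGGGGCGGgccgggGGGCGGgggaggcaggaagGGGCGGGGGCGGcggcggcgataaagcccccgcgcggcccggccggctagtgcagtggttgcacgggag
Serpinf1 (chr11:75422574-75422873, minus strand): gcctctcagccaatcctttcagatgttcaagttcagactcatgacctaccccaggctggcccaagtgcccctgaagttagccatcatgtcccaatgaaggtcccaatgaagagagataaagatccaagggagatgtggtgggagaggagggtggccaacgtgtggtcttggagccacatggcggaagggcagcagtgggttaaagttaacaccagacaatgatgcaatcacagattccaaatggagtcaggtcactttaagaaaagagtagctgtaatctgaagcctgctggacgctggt
The window of Plaur held 1 AP-1 heptamer, whose first base lies 69 bases before the start, and 5.20% of the 32851 promoter windows of all genes hold one. It also held 3 GC boxes, and that of Serpine2 held 6, beside 35.7% of all windows with at least 1. The window of Serpine2 is 77.7% G and C, that of Plaur 59.3% and that of Serpinf1 50.7%, and that of Serpinf1 held neither motif. TATAAA, held by 13.6% of all windows, was found in none of the 3. The motif E-box (CANNTG, on both strands, not capitalised) occurred 4 times in the window of Serpinf1, once in that of Serpine2 and not in that of Plaur, and 72.3% of all windows hold it.

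The activators come first. Plau, the gene of urokinase (chromosome 14, 21655884 to 21662610, plus strand, 11 exons, mm9 as are all coordinates of the files), was at 16.2 ± 0.77 FPKM in the library labelled shKSRP, against 33.3 ± 1.2 FPKM with BMP2 and 42.3 ± 1.3 FPKM in mock. The library labelled shKSRP was thus the lowest, mock the highest, and the intervals of neighbouring levels did not overlap. The log2 ratio was −1.33 (range −1.44 to −1.22) for the library labelled shKSRP against mock and −0.34 (range −0.43 to −0.24) for BMP2 against mock. The level in the library labelled shKSRP rested on an estimated 2567 fragments.

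Plau was made up of 2 transcripts in each library. Beside the RefSeq transcript stood an assembled one with the same later introns but another first exon, which began 90, 111 and 136 bp downstream of the RefSeq start in the library labelled shKSRP, the BMP2 library and mock and ended at the same base in all 3. Each assembled transcript also stopped 198 bp before the RefSeq 3′ end. The assembled transcript was at 5.73 ± 0.50 FPKM in the library labelled shKSRP, against 15.8 ± 0.85 FPKM with BMP2 and 23.4 ± 1.00 FPKM in mock. The RefSeq transcript was at 10.5 ± 0.59 FPKM in the library labelled shKSRP, against 17.5 ± 0.85 FPKM with BMP2 and 19.0 ± 0.89 FPKM in mock. The transcript with the downstream first exon thus spanned more between libraries, with a log2 ratio of −1.86 (range −2.03 to −1.69) against −0.80 (range −0.94 to −0.66) for the RefSeq transcript in the library labelled shKSRP against mock. With the RefSeq transcript alone, Plau was not called lower. The share of Plau on the RefSeq transcript was 64.7% in the library labelled shKSRP, 52.5% with BMP2 and 44.8% in mock.

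Plat, the gene of tissue plasminogen activator (chromosome 8, 23868216 to 23893320, plus strand, 14 exons), ran the other way. It was at 38.8 ± 0.95 FPKM in the library labelled shKSRP, against 27.7 ± 0.99 FPKM with BMP2 and 16.2 ± 0.65 FPKM in mock. The library labelled shKSRP was the highest and mock the lowest, with no overlap between the intervals. The log2 ratio was 1.21 (range 1.12 to 1.3) for the library labelled shKSRP against mock and 0.74 (range 0.63 to 0.84) for BMP2 against mock, short of 2-fold. All of the Plat level stood on the RefSeq transcript in the library labelled shKSRP and in mock. In the BMP2 library 4.85 ± 0.53 FPKM, or 17.5% of the gene, stood on an assembled transcript that left out exons 5, 6 and 7, together 378 nt. That transcript was not assembled in the other libraries, each of which was assembled on its own.

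The sum of both activators was 55.0 FPKM in the library labelled shKSRP, 61.0 FPKM with BMP2 and 58.6 FPKM in mock. Their ratio, Plau over Plat, was 0.42 in the library labelled shKSRP, against 1.2 with BMP2 and 2.61 in mock. With RefSeq transcripts alone the ratio was 0.27 in the library labelled shKSRP, 0.77 with BMP2 and 1.17 in mock, and the sum was 49.3, 40.3 and 35.2 FPKM in that order of libraries. Per length of transcript, tissue plasminogen activator was thus the more abundant activator mRNA in the library labelled shKSRP and urokinase in mock by both sums, whereas the order in the BMP2 library turned with the transcripts counted.

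**Figure D2:**
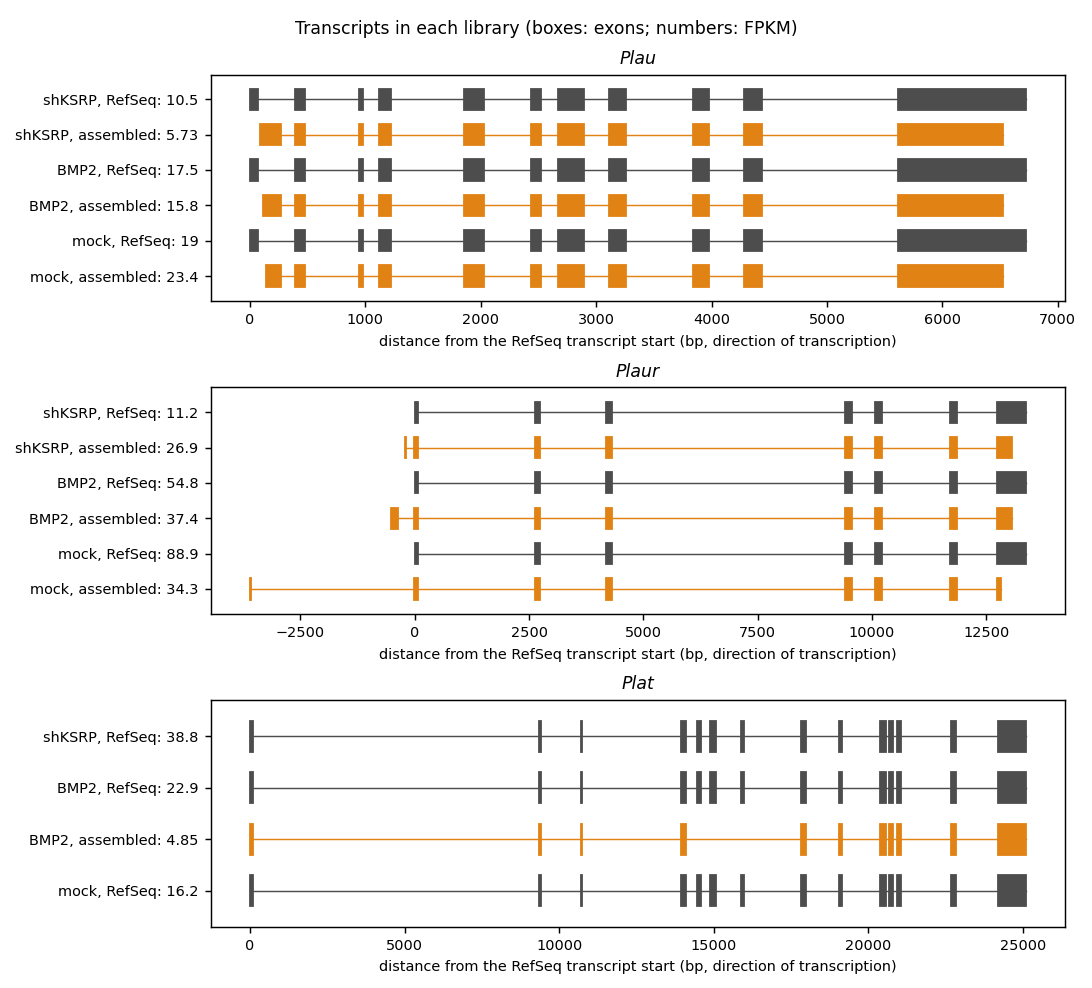
Exons (boxes) of the RefSeq and assembled transcripts of Plau, Plaur and Plat in each library, by distance in bp from the RefSeq start in the direction of transcription, with the FPKM of each transcript at the left. Plau had a downstream first exon and Plaur an extra upstream exon in all 3 libraries, and Plat lacked 3 exons in 1 transcript of the BMP2 library (4.85 FPKM).

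Plaur, the urokinase receptor gene (chromosome 7, 25247519 to 25260892, plus strand, 7 exons), was at 38.1 ± 1.7 FPKM in the library labelled shKSRP, against 92.2 ± 2.6 FPKM with BMP2 and 123.2 ± 3.1 FPKM in mock. It had the same order of libraries as Plau, with no overlap between intervals, and its log2 ratio was −1.67 (range −1.76 to −1.57) for the library labelled shKSRP against mock. For BMP2 against mock it was −0.41 (range −0.49 to −0.34). The ratio of receptor to urokinase mRNA, Plaur over Plau, was 2.35 in the library labelled shKSRP, against 2.77 with BMP2 and 2.91 in mock. On RefSeq transcripts alone it was 1.07 in the library labelled shKSRP, against 3.13 with BMP2 and 4.68 in mock.

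The transcripts of Plaur did not share that difference evenly. The RefSeq transcript was at 11.2 ± 0.88 FPKM in the library labelled shKSRP, against 54.8 ± 1.9 FPKM with BMP2 and 88.9 ± 2.2 FPKM in mock. The assembled transcript was at 26.9 ± 1.4 FPKM in the library labelled shKSRP, against 37.4 ± 1.8 FPKM with BMP2 and 34.3 ± 2.2 FPKM in mock. For the library labelled shKSRP against mock this gave a log2 ratio of −2.88 (range −3.02 to −2.74) on the RefSeq transcript and −0.34 (range −0.50 to −0.18) on the assembled one. The assembled transcripts held all 6 RefSeq introns and 1 more exon upstream, of 28 nt in the library labelled shKSRP, 154 nt with BMP2 and 15 nt in mock. They stopped 323, 304 and 551 bp before the RefSeq 3′ end in these libraries. Because the assembled models differed between libraries, how fragments were divided between them and the RefSeq transcript may differ as well, which was not tested.

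Among the inhibitors, Serpine2 codes for protease nexin-1, a secreted serpin that inhibits urokinase, tissue plasminogen activator and thrombin (chromosome 1, 79790896 to 79855240, minus strand, 9 exons). It was at 100.1 ± 2.1 FPKM in the library labelled shKSRP, against 81.5 ± 2.0 FPKM with BMP2 and 36.5 ± 1.4 FPKM in mock. Mock was the lowest and apart from the other two, and no intervals overlapped. The log2 ratio was 1.43 (range 1.35 to 1.52) for the library labelled shKSRP against mock and 1.14 (range 1.05 to 1.23) for BMP2 against mock. The level of Serpine2 set over the sum of both activators was 1.82 in the library labelled shKSRP, 1.34 with BMP2 and 0.62 in mock. With RefSeq transcripts alone it was 1.28, 1.32 and 0.60, so that mock was the lowest by both sums and the order of the other libraries turned.

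The RefSeq transcript held 62.8% of Serpine2 in the library labelled shKSRP, 65.4% with BMP2 and 58.0% in mock, so its share moved less than that of Plau or Plaur. In mock the assembled transcript, at 15.3 ± 0.97 FPKM, left out exon 2 of 281 nt. In the BMP2 library the assembled transcript, at 28.2 ± 1.3 FPKM, had the RefSeq introns and ended 230 bp earlier. That of the library labelled shKSRP was at 37.2 ± 1.5 FPKM and began with an exon of 29 nt within the first intron.

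Serpinf1 codes for pigment epithelium-derived factor, a secreted serpin with no known inhibition of proteases that is known for blocking vessel growth and for its part in bone mineralization (chromosome 11, 75223531 to 75236125, minus strand, 8 exons). It was the most abundant member in each library, at 946 FPKM in the library labelled shKSRP, against 655 ± 6.9 FPKM with BMP2 and 315 ± 3.8 FPKM in mock. The half-width in the library labelled shKSRP was 1259 FPKM, larger than the level itself. The deposited intervals of its 3 transcripts there began at 0 and reached 915, 1083 and 1084 FPKM. Of these transcripts, the 2 assembled ones ran between the same ends and differed by 1 nt in length (1284 and 1283 nt). The log2 ratio of the library labelled shKSRP to mock was 1.58 but its range reached from −8.32 to 2.82, so that its direction is not settled by the intervals. For BMP2 against mock it was 1.05 (range 1.02 to 1.09). The wide range combines the intervals of the 3 transcripts as if they were independent. It therefore also holds the error of dividing fragments between near-identical transcripts. The summed levels correspond to an estimated 88695 fragments in the library labelled shKSRP, 55581 with BMP2 and 29252 in mock. With fragments set over the longest RefSeq transcript, the log2 ratio of the library labelled shKSRP to mock was 1.46.

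The RefSeq transcript of Serpinf1 was at 385 FPKM in the library labelled shKSRP (deposited interval 0 to 915 FPKM), against 398 ± 5.0 FPKM with BMP2 and 315 ± 3.8 FPKM in mock. Assembled transcripts added 561 FPKM in the library labelled shKSRP and 257 ± 4.8 FPKM with BMP2, while mock had none. With the RefSeq transcript alone, Serpinf1 was called in neither comparison with mock (log2 ratios 0.29 and 0.34). The assembled transcripts ended 122 bp earlier than the RefSeq one. They held all 7 RefSeq introns and an added upstream exon of 1 nt in the library labelled shKSRP, and with BMP2 an exon of 23 nt that began 8713 bp upstream stood in place of exon 1.

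Serping1 codes for the C1 inhibitor, the serpin that stops the first proteases of complement (C1r and C1s) and the contact proteases kallikrein and factor XIIa (chromosome 2, 84605517 to 84615586, minus strand, 8 exons). It was at 0.18 ± 0.077 FPKM in the library labelled shKSRP, against 18.5 ± 0.84 FPKM with BMP2 and 5.52 ± 0.45 FPKM in mock. It was the only member of the 6 that was lower in the library labelled shKSRP and higher with BMP2, both against mock. The log2 ratio was −2.47 (range −2.66 to −2.27) for the library labelled shKSRP against mock and 1.58 (range 1.42 to 1.74) for BMP2 against mock, a level 3.35-fold that of mock. The value in the library labelled shKSRP rested on an estimated 21.9 fragments, against 2029 with BMP2 and 615 in mock.

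In mock the RefSeq transcript of Serping1 was listed at 0, and the whole level stood on an assembled transcript that lacked exon 1, started 571 bp into the RefSeq gene and kept the other 6 introns. In the other libraries the whole level stood on the RefSeq transcript. The RefSeq transcript alone therefore turned the direction for the library labelled shKSRP against mock, to a log2 ratio of 0.23. Krt14, an epithelial keratin gene at a shared locus, had the same order of libraries, at 18.4 ± 1.0 FPKM in the library labelled shKSRP, 264 ± 3.3 FPKM with BMP2 and 114 ± 2.7 FPKM in mock. It was the only one of 6 epithelial markers to pass the filter, the others being at 0.32 FPKM or less in each library, and its part in the Serping1 result was not tested.

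**Figure D3:**
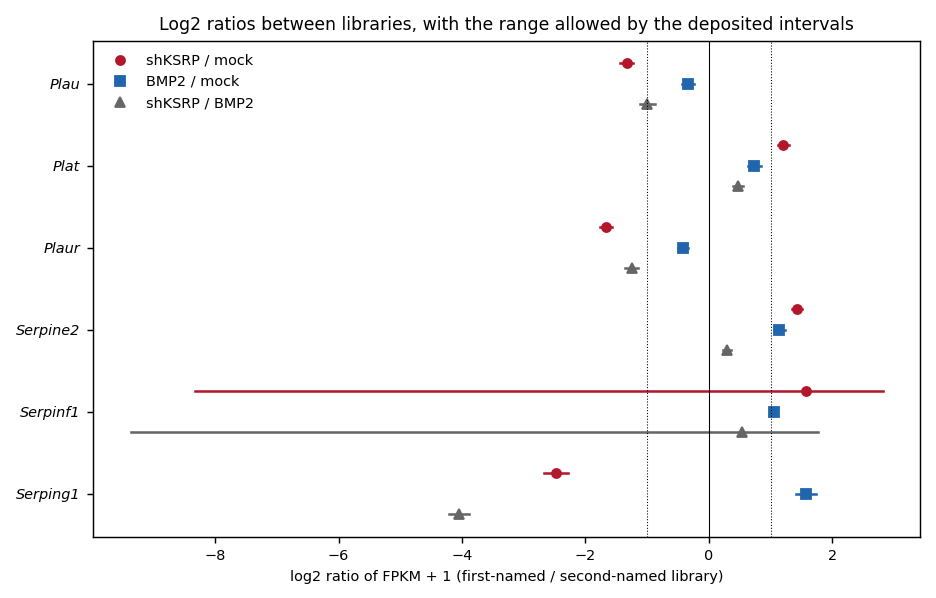
Log2 ratio of FPKM + 1 on the horizontal axis for each gene in 3 comparisons (first-named over second-named library), with the range that the deposited intervals allow as a line and dotted lines at 2-fold. Serping1 stood at −2.47 for the library labelled shKSRP over mock and at 1.58 for BMP2 over mock, and the lines of Serpinf1 that involve the library labelled shKSRP cross 0.

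The library labelled shKSRP was also set against the BMP2 library, a pair that differs in the hairpin by its labels, in medium and in BMP2. Plaur and Serping1 were lower (2 of 6, beside 8.66% of all genes), none was higher (6.07% of all genes were), and either direction held for 14.7%. The log2 ratio was −1.25 (range −1.35 to −1.15) for Plaur and −4.05 (range −4.21 to −3.89) for Serping1. Plau lay at the threshold with −0.99 (range −1.11 to −0.88). The ratios of Plat (0.47), Serpine2 (0.29) and Serpinf1 (0.53, range −9.37 to 1.76) stayed within 2-fold.

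Of 45 other genes of plasminogen activation and its surroundings, 27 passed the filter. In the library labelled shKSRP against mock 4 were higher, 4 lower and 19 neither, with a median log2 ratio of −0.08 beside −0.02 for all genes compared. With BMP2 against mock 3 were higher, 3 lower and 21 neither, with a median of 0.01 beside 0.03. The share called was 29.6% for the library labelled shKSRP and 22.2% with BMP2, near the 24.0% and 18.2% of all genes, so the genes below are given as single values and not as a shift of the list. Plasminogen itself (Plg) did not pass the filter, at 0.0060 FPKM with BMP2 and listed at 0 in the other libraries, and the fibrinogen genes and Vtn (vitronectin) did not pass either.

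Of the other inhibitors of the activators, Serpinb2, the gene of plasminogen activator inhibitor 2, was at 0.17 ± 0.073 FPKM in the library labelled shKSRP, against 0.97 ± 0.22 FPKM with BMP2 and 4.96 ± 0.49 FPKM in mock. It was called lower in both comparisons with mock (log2 ratios −2.34 and −1.60), though with a pseudocount of 5 neither call held (−0.94 and −0.74).

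Among the genes whose products bind plasminogen at the cell surface, Eno1 (alpha-enolase, at a shared locus) was called lower in the library labelled shKSRP, at 296 ± 3.3 FPKM against 644 ± 4.9 FPKM in mock (log2 ratio −1.12), a call that ended with the length trend taken out (−0.86). Of the receptors that clear the complexes, Vldlr was higher in the library labelled shKSRP, at 4.23 ± 0.22 FPKM against 0.76 ± 0.092 FPKM in mock (log2 ratio 1.57). That call ended with RefSeq transcripts alone (0.41) and with a pseudocount of 5 (0.68). Lrp8 was lower there, at 0.97 ± 0.11 FPKM against 3.05 ± 0.23 FPKM in mock, a direction that the RefSeq transcripts alone turned.

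Among the partners of the urokinase receptor, Itga3, an integrin chain that binds the receptor, was at 54.4 ± 1.2 FPKM in the library labelled shKSRP, against 39.0 ± 1.2 FPKM with BMP2 and 15.2 ± 0.47 FPKM in mock, and was called higher in both comparisons with mock. Itgb3, a chain of the vitronectin receptor, was higher with BMP2, at 14.8 ± 0.49 FPKM against 2.82 ± 0.21 FPKM in mock, while its partner chain Itgav was lower, at 9.16 ± 0.34 FPKM against 23.1 ± 0.45 FPKM in mock. The Itgb3 direction turned with the RefSeq transcript alone (log2 ratio −1.93), and Itga3 went to 0.95 in the library labelled shKSRP and to −0.01 with BMP2, so that neither of its calls held. Itgav was at −0.99 with a pseudocount of 5.

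Igf2r, which can bind plasminogen and the urokinase receptor, was higher in the library labelled shKSRP, at 18.4 ± 0.54 FPKM against 6.71 ± 0.22 FPKM in mock, although the RefSeq transcript alone gave −0.32 on the log2 scale and the call ended at 0.82 with the length trend taken out. Mrc2, the collagen receptor that associates with the urokinase receptor, was called between the library labelled shKSRP and the BMP2 library alone, at 27.9 ± 0.52 FPKM against 13.0 ± 0.40 FPKM, a call that ended with the length trend taken out (0.89) and with a pseudocount of 5 (0.87). Met, the receptor of hepatocyte growth factor, was lower with BMP2, at 5.52 ± 0.39 FPKM against 13.5 ± 0.56 FPKM in mock, which RefSeq transcripts alone brought within 2-fold (−0.65). Thbs1, a matrix protein gene, was at 1539 ± 4.8 FPKM in the library labelled shKSRP, against 1900.1 ± 7.7 FPKM with BMP2 and 210.7 ± 1.8 FPKM in mock. Thbd, the gene of the thrombin receptor thrombomodulin, was lower in the library labelled shKSRP, at 1.26 ± 0.14 FPKM against 13.9 ± 0.57 FPKM in mock (log2 ratio −2.72).

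**Figure D4:**
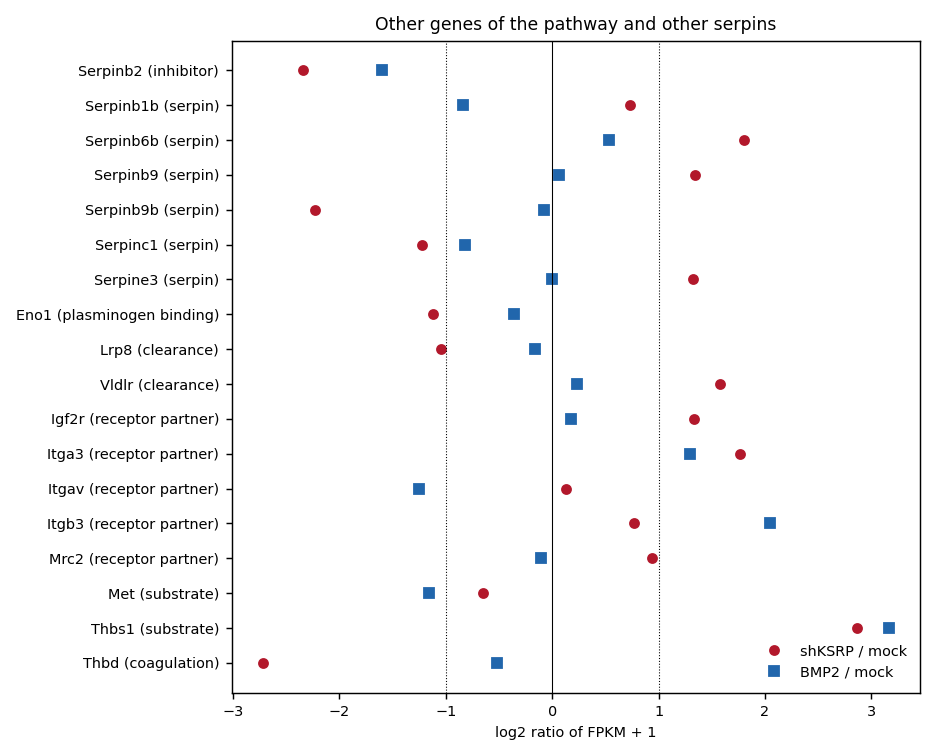
Log2 ratio of FPKM + 1 to mock for the library labelled shKSRP (circles) and the BMP2 library (squares), for the other pathway genes and serpins called in at least 1 comparison, grouped by role. Dotted lines mark 2-fold. Serpine3, Serpinc1 and Serpinb1b are listed at 0 in at least 1 library, and a point that involves a level of 0 gives no fold. Serpinb2 was lower in both (−2.34 and −1.60), and Thbs1 was higher in both (2.86 and 3.17).

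Of 37 other serpin genes 10 passed the filter. In the library labelled shKSRP against mock 3 were higher, 2 lower and 5 neither (50% called beside 24.0% of all genes, median 0.73 beside −0.02), and with BMP2 against mock all 10 were within 2-fold (median 0.03). Serpinh1, the collagen chaperone HSP47, which was picked for the text with its values known, was at 777 ± 5.0 FPKM in the library labelled shKSRP, 564 ± 5.6 FPKM with BMP2 and 470 ± 5.4 FPKM in mock. Serpinb9, an inhibitor of granzyme B at a shared locus, was higher in the library labelled shKSRP, at 31.1 ± 0.73 FPKM against 11.7 ± 0.60 FPKM in mock. Serpinb6b was higher too, at 11.0 ± 0.72 FPKM against 2.45 ± 0.30 FPKM in mock.

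Serpinb9b, a close relative of Serpinb9 at a shared locus, went the other way, at 19.9 ± 0.79 FPKM in the library labelled shKSRP against 97.1 ± 2.5 FPKM in mock (log2 ratio −2.23). The division of fragments between such near copies is uncertain. The counts above also take in genes listed at 0 in a library. Serpine3 was listed at 0 with BMP2 and in mock and was at 1.51 ± 0.15 FPKM in the library labelled shKSRP. Serpinc1, the antithrombin gene, was listed at 0 in that library and was at 1.33 ± 0.13 FPKM in mock. Serpinb1b was listed at 0 with BMP2 and was at 1.95 ± 0.31 FPKM in the library labelled shKSRP.

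The proteases that the C1 inhibitor acts on, and other complement genes, were described beside Serping1. Of 17 such genes 10 passed the filter, of which 8 share a locus with another gene. In the library labelled shKSRP against mock 5 were higher, 2 lower and 3 neither (70% called beside 24.0% of all genes, median 0.88 beside −0.02). With BMP2 against mock 4 were higher, 1 lower and 5 neither (50% called beside 18.2%, median 0.85 beside 0.03). C1s1, the C1s protease, was at 41.2 ± 1.1 FPKM in the library labelled shKSRP, against 22.6 ± 1.1 FPKM with BMP2 and 5.18 ± 0.39 FPKM in mock. C1ra, the C1r protease, was at 27.7 ± 0.77 FPKM in the library labelled shKSRP, against 13.6 ± 0.57 FPKM with BMP2 and 6.93 ± 0.52 FPKM in mock. Both were thus highest in the library where Serping1 was lowest. With the most abundant RefSeq transcript alone, C1s1 was within 2-fold of mock in both (0.43 and 0.22).

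C1rl, a C1r-like gene with no shared locus, was at 9.93 ± 0.44 FPKM in the library labelled shKSRP, against 7.97 ± 0.46 FPKM with BMP2 and 4.08 ± 0.30 FPKM in mock, and its call in the library labelled shKSRP ended with a pseudocount of 5 (0.72). C1rb was listed at 0 in mock and C1s2 in the library labelled shKSRP, and the counts above take in such genes. Masp1, a protease of the lectin pathway that the C1 inhibitor also stops, was at 29.0 ± 0.83 FPKM in the library labelled shKSRP, against 139 ± 1.9 FPKM with BMP2 and 18.2 ± 0.62 FPKM in mock. All of these Masp1 levels stood on assembled transcripts of the locus, with RefSeq transcripts listed at 0 in each library. The Masp1 call with BMP2 rested on assembled transcripts that overlap no Masp1 exon, without which the log2 ratio was −0.18. Masp2 was at 7.89 ± 0.39 FPKM in mock, all of it on assembled transcripts, and listed at 0 in the other libraries. Of the regulators, Cd55 was at 1.66 ± 0.22 FPKM in the library labelled shKSRP, against 18.7 ± 0.70 FPKM with BMP2 and 28.9 ± 0.95 FPKM in mock, and Cd59a was within 2-fold of mock in both.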

How the data were processed

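RNA-seq of polyadenylated RNA from 3 C2C12 libraries was used. The authors deposited, per library, a Cufflinks transcript file with FPKM and its 95% interval for each transcript, per the file headers and attributes, and a score relative to the most abundant transcript, as deposited, which was not used. Per the submitters' processing notes, the tools were Cufflinks 1.3.0, TopHat 1.4.1, Bowtie 0.12.7 and CASAVA 1.8, with the build mm9. The notes at hand give no settings. Libraries had 18 cycles of PCR, per the labels' protocols, and no molecular identifiers, so intervals cover counting and assignment error only.

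Of 28222 RefSeq accessions, 27563 were named from RefSeq's GRCm38.p6 annotation, 166 from GENCODE and 216 from the files, while 277 kept the accession. Gene FPKM summed the RefSeq transcripts and the assembled transcripts of the same locus. Where genes share a locus, each assembled transcript was given to the gene with the most exon overlap. Upper half-widths of the transcripts were squared, summed and rooted. Fragments were estimated from interval widths. The files hold no counts, so no count test was run. Comparisons used log2(FPKM + 1) with no rescaling. The 9 alternatives covered pseudocounts of 5 and 0.1, the filter, the transcripts summed, centring and transcript length. Sums and calls were tested on simulated data.

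The members and lists were chosen with earlier results of these data known. Named were all members, the listed genes called at 2-fold in at least 1 comparison, the complement genes past the filter, and the 2 genes nearest to each member in pattern. Some listed genes are not reported here, though the counts of the lists include them. Markers of monocytes and macrophages summed to 8.79 FPKM in the library labelled shKSRP, 14.5 FPKM with BMP2 and 13.0 FPKM in mock, and platelet markers to 2.68, 6.88 and 4.44 FPKM. Python 3.11.15, pandas 2.3.3 and numpy 2.4.6 were used.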

Additional observations from a re-analysis of the deposited data

How the results depend on the processing

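Of the 6 members in 3 comparisons, all 18 calls held with a pseudocount of 5, with no filter, with assembled transcripts limited to those that overlap an exon, with centring and with the trend over transcript length taken out. With a pseudocount of 0.1 and with fragments set over the longest RefSeq transcript 17 of 18 held, and with RefSeq transcripts alone, or the most abundant of them, 14 of 18. For the library labelled shKSRP against mock, the members called went to 3 of 6 with either RefSeq choice, as Plau (−0.80), Serpinf1 (0.29) and Serping1 dropped out, and Serping1 turned to 0.23. Serpinf1 also dropped out with BMP2 against mock, at 0.34 with either RefSeq choice and at 0.96 with fragments over the longest transcript, and Plau entered for the library labelled shKSRP against BMP2 with a pseudocount of 0.1 (−1.03). With the length trend taken out, Plaur against mock in the library labelled shKSRP was at −1.26 instead of −1.67. With a pseudocount of 5, the genes called among all compared went to 1514 in place of 2748 for the library labelled shKSRP against mock, 1168 in place of 2082 for BMP2 against mock and 849 in place of 1689 for the library labelled shKSRP against BMP2.

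Directions also turned for other genes. In the library labelled shKSRP against mock, Lrp8 went to 0.71 with RefSeq transcripts alone and 0.56 with the most abundant one, and Igf2r to −0.32 with both. With BMP2 against mock, Itgb3 went to −1.93 and Itga3 to −0.0065 with both RefSeq choices, and Masp1 to −0.18 with only assembled transcripts that overlap an exon. In the library labelled shKSRP against BMP2, Vldlr went to −0.18 with RefSeq transcripts alone, Igf2r to −0.50 and Itgb3 to 2.70 with both RefSeq choices, and Masp1 to 0.82 with exon overlap required. The alternatives show that the transcripts summed decide these directions, and the cause of the uneven assembly was not tested. No paired analysis was possible because each group holds 1 library, and for the same reason no replicate could be left out.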

Other observations

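The genes whose 3 levels followed each member most closely were sought among 9297 genes above 0 in all libraries, by the Euclidean distance between log2(FPKM + 1) values centred on each gene's mean. With only 3 libraries such likeness is weak, as 92 genes lay within 0.2 of Plau, 178 of Plat, 34 of Plaur, 89 of Serpine2 and 76 of Serpinf1, but none of Serping1. Nearest to Plau were Srsf3 (distance 0.02), a splicing factor gene, at 78.6 ± 1.5 FPKM in the library labelled shKSRP, 155 ± 3.5 FPKM with BMP2 and 198 ± 2.2 FPKM in mock, and Apcdd1 (0.03). Nearest to Plat were Tmem94 (0.01) and Trim23 (0.03), and nearest to Plaur were Ywhah (0.05) and Fxyd5 (0.05). Serpine2 was followed by Nlgn2 (0.02) and Atad2b (0.04), and Serpinf1 by Lzts1 (0.02) and Garre1 (0.02). The closest to Serping1 were Defb41 (0.26), at 0.56 ± 0.32 FPKM in the library labelled shKSRP, 19.1 ± 2.4 FPKM with BMP2 and 6.97 ± 1.3 FPKM in mock, and Rab3b (0.33).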
